A study of Homo sapiens with 3 samples.

Results

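The genes described are 9 enzymes that move nitrogen through the urea cycle, arginine, glutamine and proline: CPS1, ASS1, ASL, ARG2, OAT, GLUL, GOT1, PYCR1 and ALDH18A1. They were taken by gene name from a deposited table of 50868 genes, and each name had 1 row. AGS, a human gastric adenocarcinoma cell line, was cultured for 48 h with 12 µM SFA, 18 µM SFE or the vehicle DMSO, in the same RPMI-1640 medium with fetal bovine serum. There was 1 library per group, made from total RNA after removal of ribosomal RNA. With no replicate no test between conditions was possible, and the intervals below are 95% intervals of counting error only. SFA and SFE are code names, their doses differ, and their values are therefore set side by side.

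The urea cycle turns ammonia into urea and is complete in liver. Other cells carry parts of it, in which ASS1 and ASL remake arginine from citrulline. Ornithine, the product of arginase, feeds polyamines and, through pyrroline-5-carboxylate, exchanges carbon and nitrogen with glutamate and proline. Glutamate, glutamine and aspartate are the nitrogen carriers that tie these routes together, and tumour cells often draw on them for nucleotide and protein synthesis.

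The libraries held 13639844 counts with SFA, 13644676 with SFE and 18767232 with DMSO. Of 5 simple epithelial markers, KRT8 and KRT18 were abundant, at 223 and 292 FPKM with SFA, 232 and 294 FPKM with SFE and 416 and 534 FPKM with DMSO. KRT19, EPCAM and CDH1 stayed at or below 0.336 FPKM in each library. FPKM, used as deposited, is the count scaled by gene length in kilobases and by the library's total. The 5 leukocyte markers and the 6 hepatocyte markers each stayed under 1 FPKM throughout, and all 6 hepatocyte markers were at 0 counts with SFA and with SFE.

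Promoter windows from RefSeq (GRCh38.p14, 250 bases before to 50 after an annotated start) were listed for 8 of the 9 genes, in 12 windows. The 4 windows below are shown because they hold an E-box, CACGTG, or the composite element TGATGNAA to which C/EBP and ATF family factors bind, and because they belong to genes whose RNA differed from DMSO in both treated libraries (CPS1, ASS1, GOT1) and to 1 whose RNA stood near DMSO in both (ALDH18A1). Sequences read 5′ to 3′ on the gene's strand, and capitals mark the matched letters.
CPS1, plus strand, chr2:210519468-210519767: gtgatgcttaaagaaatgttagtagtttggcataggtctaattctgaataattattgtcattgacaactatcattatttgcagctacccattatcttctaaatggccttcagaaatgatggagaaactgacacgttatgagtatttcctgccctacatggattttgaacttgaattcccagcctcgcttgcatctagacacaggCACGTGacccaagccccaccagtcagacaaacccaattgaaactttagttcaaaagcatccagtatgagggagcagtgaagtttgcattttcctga
ASS1, plus strand, chr9:130444711-130445010: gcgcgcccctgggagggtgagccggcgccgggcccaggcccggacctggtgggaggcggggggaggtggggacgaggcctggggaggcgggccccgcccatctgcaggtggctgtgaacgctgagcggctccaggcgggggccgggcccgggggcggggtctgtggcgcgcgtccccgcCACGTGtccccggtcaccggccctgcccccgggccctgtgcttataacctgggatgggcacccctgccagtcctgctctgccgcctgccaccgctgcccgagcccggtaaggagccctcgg
ALDH18A1, minus strand, chr10:95656662-95656961: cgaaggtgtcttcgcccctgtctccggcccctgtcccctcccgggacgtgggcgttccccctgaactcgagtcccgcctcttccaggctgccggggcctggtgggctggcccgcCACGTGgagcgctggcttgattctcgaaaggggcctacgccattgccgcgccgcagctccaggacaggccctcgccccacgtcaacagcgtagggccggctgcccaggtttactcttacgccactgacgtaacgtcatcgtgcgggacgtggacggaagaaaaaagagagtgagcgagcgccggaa
GOT1, minus strand, chr10:99430575-99430874: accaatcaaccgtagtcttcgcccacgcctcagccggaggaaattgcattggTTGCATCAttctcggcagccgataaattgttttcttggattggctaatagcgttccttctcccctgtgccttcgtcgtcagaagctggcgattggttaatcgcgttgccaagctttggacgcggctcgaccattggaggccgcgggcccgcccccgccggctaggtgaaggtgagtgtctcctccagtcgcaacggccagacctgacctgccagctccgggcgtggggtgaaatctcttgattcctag

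Both motifs were searched on both strands. The E-box, which reads the same on either strand, lay in 1 window each of CPS1, ASS1 and ALDH18A1 and in 7.23% of all 34943 windows. In the ASS1 window it began 71 bases before the start, in the CPS1 window 46 and in the ALDH18A1 window 136. CPS1 has 3 listed windows and ASS1 2, and gene counts do not tell which start was used. TGATGNAA was found among these genes in the GOT1 window only, on the opposite strand, and in 3.62% of all windows. TGACNNNGC, the core of the antioxidant response element, was found only in the OAT window (13.3% of all windows). CCAAT was found in 6 of the 12 windows, each of a different gene (34.6% of all windows). No match overlapped a match of another motif. A match describes letters and not a bound site.

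CPS1, ASS1 and ASL, which carry nitrogen into the cycle and on to arginine, were lower in both treated libraries. For ARG2, with few counts, a difference in either direction was not detectable. CPS1 had the widest difference of the 8 genes that reached 1 FPKM: it was 2.48-fold lower with SFA and 1.90-fold lower with SFE. ASS1 and ASL were 1.25-fold to 1.39-fold lower. In total, the FPKM of CPS1, ASS1, ASL and ARG2 summed to 97.1 with SFA, 107 with SFE and 152 with DMSO.

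CPS1 (ENSG00000021826, hg38 chromosome 2, 210477682 to 210679107, plus strand) encodes the mitochondrial carbamoyl-phosphate synthetase, which fixes ammonia in the opening step of the urea cycle. It stood at 20.7 FPKM with SFA, 27.0 FPKM with SFE and 51.3 FPKM with DMSO, from 3368, 4401 and 11492 counts. Its ratio to DMSO was 0.403 with SFA (0.388 to 0.419) and 0.527 with SFE (0.509 to 0.545), so neither interval came near 1. Ratios are those of counts divided by the library's total count. Among the 11680 genes that reached 1 FPKM in any library, 0.625% had as negative a difference in log2(FPKM + 1) with SFA and 1.38% with SFE. The intronic RNA CPS1-IT1 inside the gene had 10 counts with SFA, 8 with SFE and 27 with DMSO.

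CPS1 is known as a gene of liver and small intestine. All 6 hepatocyte markers were at 0 in both treated libraries, and with DMSO they summed to 0.256 FPKM, while CPS1 alone stood at 51.3 FPKM there. The 6 enterocyte markers summed to 2.36 FPKM with SFA, 3.14 FPKM with SFE and 11.4 FPKM with DMSO. Of these, FABP1, FABP2 and SI were at 0 in each library. ALPI, the intestinal alkaline phosphatase, stood at 0.310, 0.442 and 8.26 FPKM with SFA, SFE and DMSO, and VIL1 at 0.0557, 0.0371 and 0.0810 FPKM. CDX2 stood at 1.99, 2.66 and 3.06 FPKM with SFA, SFE and DMSO. The CDX2 ratio was 0.651 (0.520 to 0.810) with SFA and 0.869 (0.710 to 1.06) with SFE. The 6 fibroblast markers summed to 16.6, 19.8 and 30.6 FPKM in the same order, and 4 of them reached 1 FPKM in each library. COL1A1, COL3A1 and PDGFRB had ratios of 0.530, 0.176 and 0.412 with SFA. With SFE these were 0.636, 0.283 and 0.468. THY1 lay on the other side of DMSO, at 6.48, 7.25 and 4.29 FPKM with SFA, SFE and DMSO. Its ratio was 1.51 (1.38 to 1.66) with SFA and 1.69 (1.54 to 1.85) with SFE. COL1A2 was at 0 with SFA and with SFE, and DCN stayed at or below 0.159 FPKM. The part of these markers in the CPS1 difference was not tested, and fewer cells expressing a gene cannot be told apart from less RNA per cell.

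ASS1 (ENSG00000130707, chromosome 9, 130444929 to 130501274, plus strand) joins citrulline and aspartate to argininosuccinate. It stood at 68.8 FPKM with SFA, 71.3 FPKM with SFE and 91.5 FPKM with DMSO. The ratio was 0.752 with SFA (0.724 to 0.781) and 0.779 with SFE (0.750 to 0.809). ASS1 had the highest FPKM of the 9 genes in each library, though with SFA its interval overlapped that of ALDH18A1. The treated libraries lay close to each other for ASS1. CPS1 stood at 0.301 of the ASS1 FPKM with SFA, 0.379 with SFE and 0.561 with DMSO.

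ASL (ENSG00000126522, chromosome 7, 66075798 to 66093558, plus strand) splits argininosuccinate into arginine and fumarate. It stood at 5.24 FPKM with SFA, 5.83 FPKM with SFE and 7.27 FPKM with DMSO, and its ratio was 0.721 (0.640 to 0.812) with SFA and 0.802 (0.715 to 0.899) with SFE. The FPKM of ASS1 was 13.1 times that of ASL with SFA, 12.2 times with SFE and 12.6 times with DMSO, so these sequential enzymes kept nearly the same ratio. ARG2 (ENSG00000081181, chromosome 14, 67619798 to 67651720, plus strand), the mitochondrial arginase, stood at 2.32 FPKM with SFA, 2.32 FPKM with SFE and 1.86 FPKM with DMSO. It rested on 97, 97 and 107 counts, and with ratios of 1.25 (0.938 to 1.66) and 1.25 (0.937 to 1.66) a difference was not detectable at this depth. The gene overlaps VTI1B, which had 349 counts with SFA, 377 with SFE and 565 with DMSO, and adding those counts turned the log2 ratio of ARG2 to −0.13 with SFA and −0.04 with SFE.

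**Figure D1:**
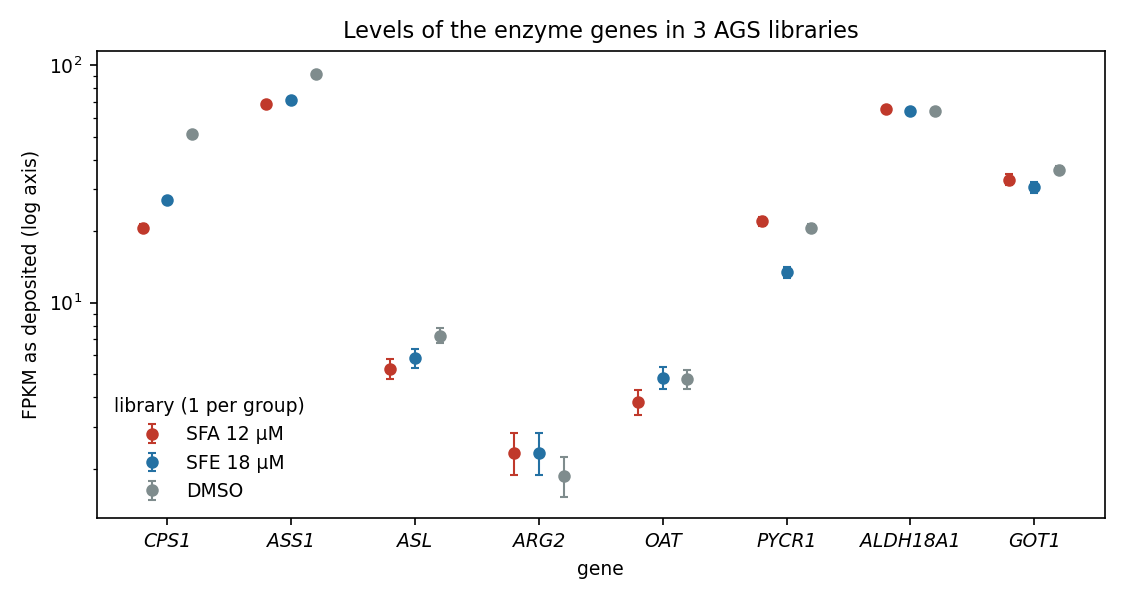
FPKM as deposited (log axis) of the 8 genes at 1 FPKM or more, by gene, in the SFA, SFE and DMSO libraries; points are single libraries and bars are 95% counting intervals. CPS1 lies at 20.7, 27.0 and 51.3 FPKM with SFA, SFE and DMSO, whereas ALDH18A1 lies between 64.1 and 65.6 FPKM in each library.

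The rest of the cycle was near or below detection. NAGS, which makes the activator of CPS1, had 35 counts with SFA, 15 with SFE and 18 with DMSO. It stayed under 1 FPKM, with a ratio of 2.68 with SFA (1.47 to 5.02) and 1.15 with SFE (0.538 to 2.41). OTC, which passes carbamoyl phosphate to ornithine, was at 0 counts in each library, and a count of 0 allows up to 0.220 CPM (counts scaled to the library's total) with SFA, 0.220 CPM with SFE and 0.160 CPM with DMSO. The liver arginase ARG1 had 0, 0 and 6 counts with SFA, SFE and DMSO.

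The genes that link ornithine and glutamate to proline did not move together. ALDH18A1, which makes pyrroline-5-carboxylate from glutamate, stood near DMSO in both treated libraries. PYCR1, which reduces it to proline in mitochondria, was lower with SFE and near DMSO with SFA. OAT was lower with SFA and level with DMSO in the SFE library.

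ALDH18A1 (ENSG00000059573, chromosome 10, 95605929 to 95656706, minus strand) stood at 65.6 FPKM with SFA, 64.2 FPKM with SFE and 64.1 FPKM with DMSO. Its ratio was 1.02 (0.984 to 1.06) with SFA and 1.001 (0.963 to 1.04) with SFE, intervals that hold 1 when scaled by library totals. With SFE the interval lay below 1 under median-of-ratios scaling, at 0.948 (0.912 to 0.985), and under TMM scaling, at 0.936 (0.900 to 0.973). Its sign depends on the scaling, since the log2 ratio ran from −0.03 to 0.03 with SFA and from −0.10 to 0.00 with SFE.

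PYCR1 (ENSG00000183010, chromosome 17, 81932384 to 81942412, minus strand) stood at 22.0 FPKM with SFA, 13.4 FPKM with SFE and 20.6 FPKM with DMSO, from 2057, 1255 and 2651 counts. The ratio was 1.07 with SFA (1.01 to 1.13) and 0.651 with SFE (0.608 to 0.697), so the SFE library stood apart from the other libraries. With SFA the interval held 1 under median-of-ratios scaling, at 1.04 (0.984 to 1.11), and under TMM scaling, at 1.02 (0.966 to 1.08). In SFE against DMSO, 3.51% of genes had as negative a difference. The gene overlaps RP11-498C9.13, with 259, 278 and 426 counts with SFA, SFE and DMSO. With all overlapping genes added the log2 ratio was 0.05 with SFA and −0.55 with SFE, against 0.09 and −0.62 for PYCR1 alone. ALDH18A1 stood at 2.98 times the FPKM of PYCR1 with SFA, 4.78 times with SFE and 3.11 times with DMSO.

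The cytosolic relative of PYCR1, PYCR3, listed under its older name PYCRL, stood at 9.64, 10.6 and 10.7 FPKM with SFA, SFE and DMSO.

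OAT (ENSG00000065154, chromosome 10, 124397303 to 124418976, minus strand), the mitochondrial aminotransferase between ornithine and pyrroline-5-carboxylate, stood at 3.80 FPKM with SFA, 4.82 FPKM with SFE and 4.77 FPKM with DMSO. The ratio was 0.798 (0.684 to 0.929) with SFA and 1.01 (0.876 to 1.17) with SFE. Only the SFA library lay below DMSO beyond counting error.

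**Figure D2:**
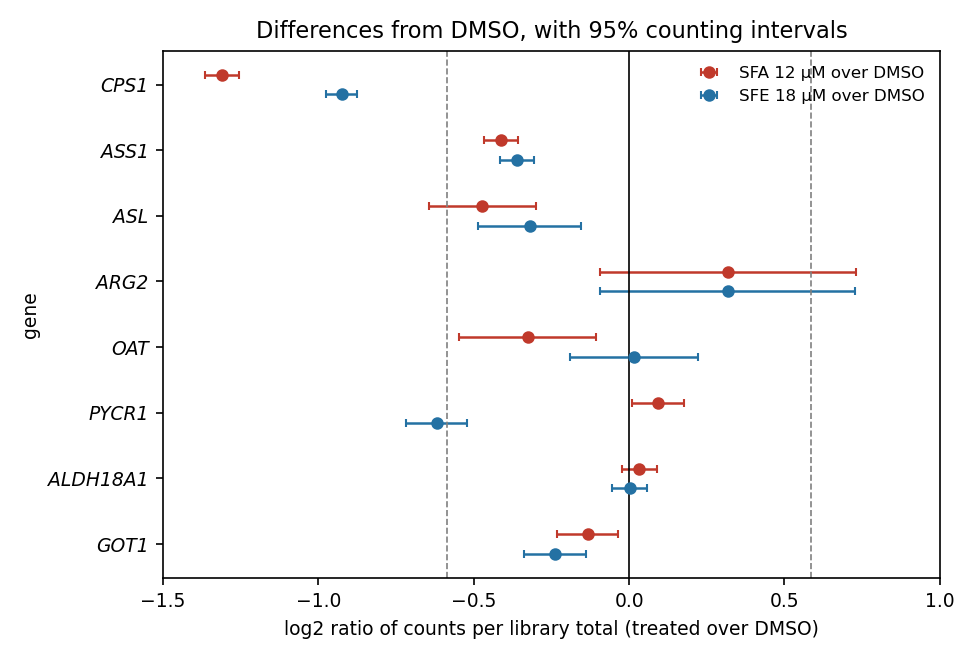
Log2 ratio of counts per library total, SFA 12 µM or SFE 18 µM over DMSO, for the 8 genes; points are single comparisons, bars are 95% counting intervals and dashed lines mark 1.5-fold. CPS1 lies past the line to the left with both compounds, at −1.31 and −0.92, and PYCR1 only with SFE, at −0.62.

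GOT1 and GLUL handle aspartate and glutamine. GOT1 (ENSG00000120053, chromosome 10, 99396870 to 99430624, minus strand), the cytosolic aspartate aminotransferase, stood at 33.0 FPKM with SFA, 30.7 FPKM with SFE and 36.2 FPKM with DMSO. Its ratio was 0.912 (0.852 to 0.976) with SFA and 0.848 (0.791 to 0.908) with SFE. Its mitochondrial counterpart GOT2, which is outside the 9, stood at 71.1, 71.4 and 69.7 FPKM with SFA, SFE and DMSO.

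GLUL (ENSG00000135821, chromosome 1, 182381704 to 182392206, minus strand), the glutamine synthetase, was listed at 0 counts with SFA, 1 with SFE and 0 with DMSO, so no fold is given. No listed gene overlaps it. The single SFE count was turned into FPKM with a length of 21565 bases, although the gene spans 10503 bases and its merged exons 9032. Such a length is not particular to GLUL, since the abundant KRT18 had 6593 bases over a span of 4031. How GLUL was counted is not given in the sources used here, and these values do not show whether the cells lacked its RNA.

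Of the 8 genes tested, 1 with SFA (CPS1) and 2 with SFE (CPS1 and PYCR1) were at least 1.5-fold lower in the ratio of counts, where 9.08% and 6.89% of all 11680 genes were. None was at least 1.5-fold higher, where 10.2% and 10.6% of all genes were. At 2-fold, CPS1 was lower with SFA (3.63% of all genes) and no gene was with SFE (2.8%), and none was higher (4.4% and 4.63% of all genes). Just outside the 1.5-fold limit lay ASL with SFA, 1.39-fold lower, and just inside it PYCR1 with SFE, 1.54-fold lower. On the log2(FPKM + 1) scale PYCR1 lay just outside, at −0.58. By library totals, counting intervals left out 1 on the lower side for 5 genes with SFA and 5 with SFE, against 26.8% and 22.8% of all genes. Such a share also grows with a gene's counts. On the higher side they left it out for PYCR1 with SFA and for no gene with SFE, against 27.6% and 28.9% of all genes. Median-of-ratios and TMM scaling add ALDH18A1 with SFE on the lower side and take away PYCR1 with SFA on the higher side. The shares of all genes are those by library totals only. The median difference of the 8 genes in log2(FPKM + 1) was −0.20 with SFA and −0.25 with SFE, and that of all genes 0.01 and 0.03. These genes were chosen with such values known, and both comparisons use the same DMSO library.

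The other 45 genes of arginine, proline, polyamine and glutamine metabolism had medians close to those of all genes. Of them 29 reached 1 FPKM, with a median log2(FPKM + 1) difference of 0.04 with SFA and 0.07 with SFE. Above DMSO were 20 with SFA and 18 with SFE, where 51.4% and 55.2% of all genes lay at or above it. At least 1.5-fold higher on that scale were 3 genes with either compound, ASNS and PSAT1 among them (5.36% and 5.34% of all genes were), and at least 1.5-fold lower was SLC25A22 with SFE (3.48%) and none with SFA (4.67%).

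ASNS, the asparagine synthetase, which uses glutamine, stood at 10.1 FPKM with SFA, 9.65 FPKM with SFE and 5.03 FPKM with DMSO. PSAT1, the phosphoserine aminotransferase, which takes its nitrogen from glutamate, stood at 104, 98.6 and 60.5 FPKM, a ratio of 1.72 (1.64 to 1.81) with SFA and 1.63 (1.55 to 1.71) with SFE. GPT2, the mitochondrial alanine aminotransferase, was 1.45-fold (1.35 to 1.56) and 1.32-fold (1.23 to 1.42) higher. GLUD1, GOT2, CAD, GFPT1 and CTPS1 all had ratios between 0.978 and 1.10.

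The carriers that move ornithine, aspartate and glutamate across the inner mitochondrial membrane differed from one another. SLC25A15, the ornithine and citrulline carrier, stood at 9.68 FPKM with SFA, 9.98 FPKM with SFE and 6.54 FPKM with DMSO, a ratio of 1.48 (1.26 to 1.74) and 1.53 (1.30 to 1.79). SLC25A13, the aspartate and glutamate carrier citrin, stood at 16.4, 18.1 and 12.7 FPKM. SLC25A22, a glutamate carrier, stood at 12.9 FPKM with SFA, 7.88 FPKM with SFE and 12.4 FPKM with DMSO. Its ratio was 1.04 (0.979 to 1.10) with SFA and 0.638 (0.594 to 0.684) with SFE, so it was low in the SFE library alone, as PYCR1 was.

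Of the genes that use arginine and ornithine, ODC1, which makes putrescine from ornithine, stood at 187 FPKM with SFA, 175 FPKM with SFE and 156 FPKM with DMSO. SRM and SMS, which build spermidine and spermine, lay between 1.08-fold and 1.16-fold above DMSO. SMOX, the spermine oxidase, was lower, at 14.6 FPKM with SFA, 15.9 FPKM with SFE and 22.3 FPKM with DMSO, and AMD1, which supplies the aminopropyl donor, had ratios of 0.800 (0.749 to 0.855) and 0.815 (0.763 to 0.871). AGMAT, listed as an agmatinase, stood at 13.2, 13.1 and 9.85 FPKM and overlaps DNAJC16. The nitric oxide synthases NOS1, NOS2 and NOS3 had at most 1 count in any library.

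**Figure D3:**
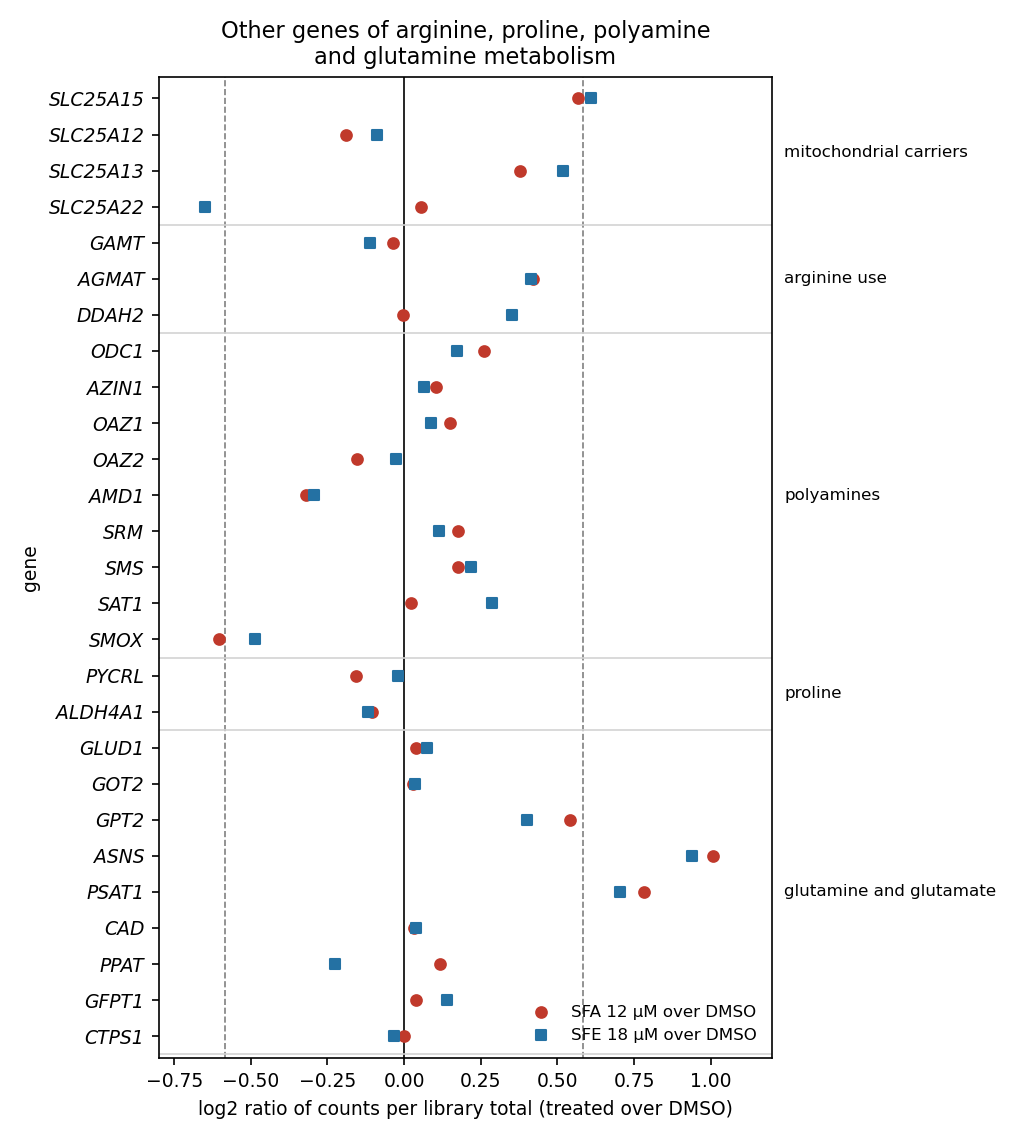
Log2 ratio of counts per library total over DMSO for 27 of the 29 other genes at 1 FPKM or more, grouped by role, with SFA (circles) and SFE (squares); dashed lines mark 1.5-fold. ASNS and PSAT1 lie to the right of the line with both compounds, SLC25A15 does with SFE only, and left of the other line lie SLC25A22 with SFE and SMOX with SFA.

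The table's own KEGG labels were counted on the ratio of counts, on which SMOX with SFA was 1.52-fold lower, while it fell short of the limit in log2(FPKM + 1), at −0.57. Of all genes, 10.2% with SFA and 10.6% with SFE were at least 1.5-fold higher by this measure, and 9.08% and 6.89% lower. At or above DMSO lay 51.4% of all genes with SFA and 55.2% with SFE. Under "Arginine biosynthesis", which holds 5 of the 9 genes, 10 of 19 genes were tested; CPS1 alone was at least 1.5-fold lower with either compound, none was higher, and 4 lay above DMSO in each comparison. Under "Arginine and proline metabolism" 30 of 49 were tested, 17 lay above DMSO in each comparison and 1 was at least 1.5-fold higher in each; 1 was as much lower, SMOX with SFA and CNDP2 with SFE. Under "Alanine, aspartate and glutamate metabolism", which holds 5 of the 9 genes, 20 of 34 were tested; 2 were at least 1.5-fold higher in each comparison, ASNS and GFPT2, and 2 lower, CPS1 and NAT8L with SFA and CPS1 and ADSSL1 with SFE. These labels were chosen after the values were seen.

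Levels of different genes can be compared only per length. In deposited FPKM with DMSO the order was ASS1, ALDH18A1, CPS1, GOT1, PYCR1, ASL, OAT and ARG2, and no neighbouring intervals overlapped. With SFA, CPS1 came after PYCR1, and the intervals of ASS1 and ALDH18A1 and of PYCR1 and CPS1 overlapped. With SFE, CPS1 came before PYCR1, as with DMSO, but after GOT1, unlike with DMSO. The intervals of ASL and OAT overlapped with SFE. The length behind each FPKM was longer than the merged GENCODE 29 exons for 8 of the 9 genes, by 1.11 times for CPS1 and 2.37 times for PYCR1, and shorter for GOT1 (0.940). Per kilobase of GENCODE exons, PYCR1 stood at 52.3 with SFA, 31.9 with SFE and 48.9 with DMSO, in CPM per kilobase. GOT1 stood lower, at 31.0, 28.8 and 34.0, so the order of these genes depends on the length. With SFE, CPS1 lay between PYCR1 and GOT1 on this scale, at 29.9, and its interval overlapped that of each. Ratios between libraries do not depend on the length.

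**Figure D4:**
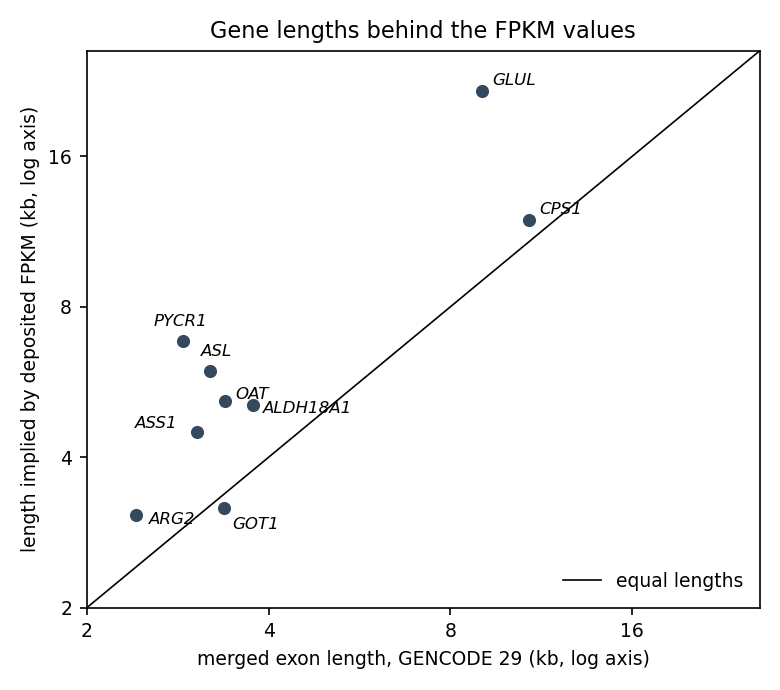
Length implied by the deposited FPKM against merged exon length in GENCODE 29, in kb on log axes, for the 9 genes; the line marks equal lengths. PYCR1 (6848 against 2886 bases) and GLUL (21565 against 9032) lie furthest above the line.

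The genes whose pattern lay nearest to CPS1, by distance over the differences from DMSO of both treated libraries in log2(FPKM + 1) among 5454 genes at 5 FPKM or more, were COL5A1, DSEL and MFAP4. COL5A1 stood at 18.1 FPKM with SFA, 22.4 FPKM with SFE and 44.5 FPKM with DMSO (distance 0.06). Nearest to ARG2, the gene with the most positive summed difference, were TBL3, MALSU1 and SEC13 (distances 0.0073 to 0.0092). Such a pattern rests on 3 libraries, and all 6 genes overlap another listed gene. The differences of ARG2 itself lay within counting error.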

How the data were processed

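The submitters' processing notes name hg38, StringTie 1.2.3 and HISAT2 2.0.4 without their roles. Counter, strand setting and annotation release are not stated there. The authors deposited raw counts and FPKM per gene for 3 libraries, 1 per group. With Python 3.11.15 and scipy 1.17.1, counts were divided by library totals and ratios given exact conditional (Clopper-Pearson) 95% intervals. These cover counting error only, since there is 1 library per group. The reads carried no molecular identifiers. A count of 0 was read as allowing 3 counts. Where names repeat, the identifier with the highest mean FPKM was kept. Differences over lists are in log2(FPKM + 1), which understates changes of low genes, over genes that reached 1 FPKM in any library. The ratio and its interval were tried on counts simulated with counting error only, so spread between libraries had no part in that trial. Alternatives were median-of-ratios and TMM scaling (edgeR 4.0.16, R 4.3.3), other filters and pseudocounts, and leaving out or adding overlapping genes. The 9 genes were all named. Of the wider list, genes at 1 FPKM or more could be named and those 1.5-fold from DMSO were, except that some genes are not reported here. For the genes with the most positive and most negative difference, the 3 nearest patterns were named. NAGS, OTC, ARG1, GPT, the nitric oxide synthases, CNDP2, GFPT2, NAT8L and ADSSL1 were named after their values were seen. Members and lists were chosen with earlier results of these data known. Without strand, reads of overlapping genes cannot be told apart, and CPS1, ASL, ARG2 and PYCR1 overlap a listed gene.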

Additional observations from a re-analysis of the deposited data

Results flagged for a closer look

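PYCR1 lay on opposite sides of DMSO in the treated libraries, with both counting intervals leaving out 1 when scaled by library totals: its ratio was 1.07 with SFA and 0.651 with SFE. Under median-of-ratios and TMM scaling the SFA interval held 1, at 0.984 to 1.11 and 0.966 to 1.08. This difference between the compounds was not tested, since there is 1 library per group and the doses differ. The SFA value lies near DMSO, and its log2 ratio ran from 0.03 to 0.10 over the alternatives.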

How the results depend on the processing

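No paired analysis was possible because each group has 1 library, and no library could be left out. CPS1, ASS1, ASL and GOT1 stayed below DMSO with both compounds, and PYCR1 below DMSO with SFE, under every scaling, measure and overlap setting tried; CPS1 ran from −1.37 to −1.27 with SFA and from −1.02 to −0.90 with SFE (log2). The OAT log2 ratio ran from −0.39 to −0.26 with SFA, below DMSO throughout, and from −0.08 to 0.02 with SFE. Median-of-ratios scaling moved all log2 ratios by −0.03 with SFA and −0.08 with SFE, and TMM by −0.06 and −0.10, which made 1 gene, CPS1, at least 2-fold lower with SFE in place of 0. The count of the 8 genes at least 1.5-fold lower with SFE was 1 in place of 2 on the log2(FPKM + 1) scale and with overlapping genes added, since PYCR1 left it. Over all genes on the log2(FPKM + 1) scale, 626 were at least 1.5-fold higher and 545 lower with SFA, and 624 and 406 with SFE. With a filter of 5 FPKM, where 5455 genes in place of 11680 were tested, these were 295 and 276, and 268 and 207. With a pseudocount of 0.1 they were 1120 and 995, and 1152 and 746. Without overlapping genes, where 3957 were tested, they were 228 and 179, and 207 and 119. Under median-of-ratios scaling they were 581 and 599 with SFA, and 512 and 503 with SFE, so the share of higher calls with SFE was 50.4% in place of 60.6%. In the wider list, genes at least 1.5-fold lower with SFA numbered 1 in place of 0 with a pseudocount of 0.1 and under median-of-ratios scaling, and with SFE 0 in place of 1 without overlapping genes. Adding overlapping genes to counts and the GENCODE lengths were chosen after seeing the data. Depth limits ARG2, with about 100 counts per library, and GLUL, OTC and ARG1 could not be compared.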

Other observations

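GPT, the cytosolic alanine aminotransferase, lay below 1 FPKM and entered no count. It had 8 counts with SFA, 45 with SFE and 95 with DMSO, a ratio of 0.116 (0.0486 to 0.238) with SFA and 0.652 (0.446 to 0.938) with SFE. It overlaps CTD-2517M22.14, which had 5, 104 and 338 counts in the same libraries, and reads of the genes cannot be told apart without strand. The albumin gene ALB had 26 counts with DMSO and 0 in both treated libraries.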
